A study of Homo sapiens with 12 samples.

Results

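The open chromatin of 9 genes that govern the G1 phase of the cell cycle was read from ATAC-seq peak lists of 3 AML cell lines. The genes were CDK6, CDK4, CCND1, CCND2, CCND3, CDKN1A, CDKN1B, CDKN2C and RB1, of 19974 protein-coding genes placed on the build (hg38). Every peak of the 12 lists that touched a gene, or the 20 kb before or after it, was taken as lying in the locus of that gene, and the 9 loci held 1093 of 1199477 peaks. The groups were VTP50469-treated MOLM13, untreated MOLM13, VTP50469-treated MV4-11, untreated MV4-11, VTP50469-treated OCI-AML3 and untreated OCI-AML3, with 2 libraries in each. VTP50469, which the study also calls SNDX-50469, is an inhibitor of the binding of Menin to MLL1 and was given at 500 nM for 16 h. MOLM13 and MV4-11 carry a rearranged MLL1 gene, whereas OCI-AML3 carries mutant NPM1. Each line is an established culture, so a difference between lines is between these cultures. All cells were cryopreserved before nuclei were isolated. MV4-11 was grown in another medium (IMDM) than MOLM13 and OCI-AML3 (RPMI), and line and medium cannot be told apart.

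D-type cyclins (CCND1, CCND2, CCND3) bind and activate the kinases CDK4 and CDK6, which phosphorylate the retinoblastoma protein RB1. Phosphorylated RB1 releases E2F factors, which then drive the genes of S phase. CDKN1A (p21) and CDKN1B (p27) bind cyclin-kinase complexes, and CDKN2C (p18) binds CDK4 and CDK6 themselves. In acute myeloid leukaemia with rearranged MLL1, CDK6 is a known target of the fusion protein, and the study showed its locus among those it displayed, so its direction here is not independent evidence.

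The lists held 68670 to 145364 peaks per library on chromosomes 1 to 22 and X, covering 15.2 to 36.8 Mb. The median peak had 9 to 13 reads over its summit, and no peak had fewer than 4, which sets the weakest site that was detectable at this depth. In MOLM13 both treated libraries had more peaks (95561 and 103034) and more open bases (24.1 and 25.4 Mb) than both controls (79373 and 92144 peaks, 20.0 and 23.1 Mb). Peaks at the starts of PTPRC, SPI1 and CEBPA, genes of myeloid cells, were in all 12 libraries, whereas CD33 and MPO had none in OCI-AML3. Among genes that mark T, B, erythroid or epithelial cells, CD3E and MS4A1 had no peak at the start in any library, CD3D and HBB had one in 1 library, and EPCAM in 4. In bulk chromatin, a site open in fewer cells and a site less open in each cell cannot be told apart.

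Start sites were open in most of the 9 genes, and the 6 starts shown are those of the sequence table whose first base lay under a peak in all 12 libraries. They are from RefSeq (GRCh38.p14), run in the direction of the gene, and end 50 bases after the start. Capitals mark matches on either strand to any of 12 motifs. These were GGAAGT (the motif named ETS in what follows), TGTGGT (named RUNX after its factors), TGANTCA (named AP-1 after its factors), TTGCNNAA (named CEBP after its factors), AACNG (named MYB after its factor), TGATTNAT (named HOX-PBX after its factors), AGATAA (named GATA after its factors), GCGGGAA (named E2F after its factors), GGGCGG (named SP/KLF after its factors), CCAAT (named NFY after its factor), TGACGTCA (named CRE, the element of CREB) and CACGTG (named E-box). Overlapping matches of different motifs were counted under each. A match is a description of the letters and not a site of binding.
CDK6, minus strand, chr7:92833910-92834209: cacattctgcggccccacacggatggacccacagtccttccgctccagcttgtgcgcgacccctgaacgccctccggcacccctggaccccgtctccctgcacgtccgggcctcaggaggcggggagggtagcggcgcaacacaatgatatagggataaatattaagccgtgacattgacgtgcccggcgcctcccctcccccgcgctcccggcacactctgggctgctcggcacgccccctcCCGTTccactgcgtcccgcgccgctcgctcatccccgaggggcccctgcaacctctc
CDK4, minus strand, chr12:57752261-57752560: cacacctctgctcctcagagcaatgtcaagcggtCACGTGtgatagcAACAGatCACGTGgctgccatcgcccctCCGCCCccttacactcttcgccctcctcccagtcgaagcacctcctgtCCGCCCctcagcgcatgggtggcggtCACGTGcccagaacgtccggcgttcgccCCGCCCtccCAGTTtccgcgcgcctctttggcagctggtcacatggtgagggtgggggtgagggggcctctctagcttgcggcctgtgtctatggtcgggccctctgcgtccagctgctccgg
CCND3, minus strand, chr6:41941759-41942058: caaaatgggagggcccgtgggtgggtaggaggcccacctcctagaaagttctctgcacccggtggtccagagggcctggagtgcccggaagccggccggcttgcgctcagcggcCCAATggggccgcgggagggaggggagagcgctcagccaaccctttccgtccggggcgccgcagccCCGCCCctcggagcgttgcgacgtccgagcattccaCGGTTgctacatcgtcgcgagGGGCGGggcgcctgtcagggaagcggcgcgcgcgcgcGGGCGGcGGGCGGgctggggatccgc
CDKN1A, plus strand, chr6:36678464-36678763: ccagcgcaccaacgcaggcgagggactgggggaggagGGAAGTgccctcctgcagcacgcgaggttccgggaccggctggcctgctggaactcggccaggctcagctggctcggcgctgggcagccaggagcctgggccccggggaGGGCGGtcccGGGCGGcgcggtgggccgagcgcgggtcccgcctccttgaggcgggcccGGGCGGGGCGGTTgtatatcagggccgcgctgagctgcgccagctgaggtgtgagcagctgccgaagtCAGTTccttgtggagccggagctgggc
CDKN1B, plus strand, chr12:12717118-12717417: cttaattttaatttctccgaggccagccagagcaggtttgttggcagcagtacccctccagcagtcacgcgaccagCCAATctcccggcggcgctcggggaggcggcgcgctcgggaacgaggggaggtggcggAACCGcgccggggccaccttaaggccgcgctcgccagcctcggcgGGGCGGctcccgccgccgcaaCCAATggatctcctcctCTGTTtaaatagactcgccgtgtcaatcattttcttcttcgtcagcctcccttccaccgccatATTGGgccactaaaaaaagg
CDKN2C, plus strand, chr1:50968456-50968755: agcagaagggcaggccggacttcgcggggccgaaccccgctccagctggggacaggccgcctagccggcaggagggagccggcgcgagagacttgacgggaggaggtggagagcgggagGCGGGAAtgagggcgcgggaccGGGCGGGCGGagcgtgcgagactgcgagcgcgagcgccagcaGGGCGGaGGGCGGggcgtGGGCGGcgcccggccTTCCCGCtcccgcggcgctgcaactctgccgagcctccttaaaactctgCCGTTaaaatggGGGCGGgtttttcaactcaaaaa

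Of these starts, CDKN2C alone held the E2F motif, with 2 matches, and 6.55% of the 35116 promoters of the table held 1 or more. GC boxes (SP/KLF), present in 45.0% of promoters, were matched 6 times at CDKN2C, 4 times each at CDKN1A and CCND3, 3 times at CDK4, once at CDKN1B and not at the CDK6 start. CDK4 had 3 E-box matches (E-box in 7.26% of promoters), and CDKN1B had 3 NFY matches (34.6%). The CDK6 start matched only the short MYB motif, which 77.2% of promoters hold. No match to the RUNX, AP-1, CEBP, HOX-PBX, GATA or CRE motif lay in these windows.

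The CDK4 start had a fold over local background of 9.25 to 13.2 and 42 to 75 summit reads. Its summits lay before the start (-235 to -65 bases), inside the printed window in 12 of 12 libraries. The peak over the CDK6 start had a fold of 4.24 and 4.94 in VTP50469-treated MOLM13, against 6.91 and 6.90 in control MOLM13. It had 8.10 and 5.85 in VTP50469-treated MV4-11, against 7.18 and 6.27 in control MV4-11. In OCI-AML3 it had 5.73 and 6.84 with VTP50469, against 5.69 and 9.36 in the control. In this peak, treated libraries thus lay below controls without overlap in MOLM13 and overlapped them in MV4-11 and OCI-AML3. The peak over the start was not tested by itself, and how many other starts had such an order was not counted. Both VTP50469-treated MOLM13 libraries had a stronger, separate peak further into the gene (summits at 761 and 827 bases, fold 4.98 and 8.17), and so did control library 1 of OCI-AML3 (825 bases, fold 5.87). In treated library 1 of MV4-11 a single peak covered both places, with its summit at 791 bases. By the strongest peak of the region that holds both places, treated and control MOLM13 libraries overlapped. That region did not pass in MOLM13 (limma on normal scores of the ranked fold, shift -0.44, SE 0.48, adjusted p = 0.963). Another CDK6 start, at chr7:92836573, beside the antisense gene CDK6-AS1, had a peak within 1 kb in 12 libraries, at a fold of 2.55 to 5.96, and under the start itself in 1.

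The inhibitor genes were open at their starts in all 12 libraries. CDKN1B had a fold of 6.47 to 11.8, CDKN2C 5.88 to 11.6, and CDKN1A 4.51 to 7.26 at the start at chr6:36678714, where the reads of the neighbouring RNA gene DINOL cannot be separated. The outermost CDKN1A start, at chr6:36676463, had no peak in any library. CCND3, which encodes cyclin D3, was open at the start shown (6.21 to 11.4) and near its outermost start (8.54 to 14.98), where the summits lay upstream of the start (-771 to -508 bases), in the promoter of the divergent gene TAF8. The outermost CDKN2C start likewise shared its region with FAF1, and the CDKN1B start region also touched the promoter of GPR19.

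The other 2 D-type cyclins were open less often. A peak over the CCND2 start (chr12:4273762) was called in both VTP50469-treated MOLM13 libraries (fold 5.56 and 4.43) and in neither control. It was called in both VTP50469-treated MV4-11 libraries (4.43 and 4.39) and in control library 2 (5.90), and in no OCI-AML3 library. CCND1 had a peak over its start (chr11:69641156) in 5 of 12 libraries, with 11 to 14 summit reads. These were control library 2 of MOLM13, treated library 2 of MV4-11, and both treated libraries and control library 2 of OCI-AML3. The absence of a call does not show that such a start was closed.

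RB1 was open at its start (chr13:48303751) in every library, in a region that also touched the promoter of RB1-DT. In MOLM13 the fold of the strongest peak within 1 kb was 13.8 and 11.4 with VTP50469, against 10.8 and 10.1 in the control. In MV4-11 it was 11.6 and 11.1 with VTP50469, against 10.7 and 13.3 in the control. In OCI-AML3 it was 6.72 and 9.86 with VTP50469, against 10.4 and 8.68 in the control. In treated library 1 of OCI-AML3 that peak lay 335 bases before the start, and the peak over the start had a fold of 6.18. The summit held 40 to 62 reads in MOLM13, 45 to 66 in MV4-11 and 12 to 18 in OCI-AML3, and the local background 2.79 to 3.55, 3.31 to 4.05 and 0.729 to 0.934 reads in the same order. Reads at the RB1 start were thus lowest in the 4 OCI-AML3 libraries in peak and background alike. The CDK4 start (42 to 47 summit reads in OCI-AML3, against 49 to 75 in the other lines) had the same order. So did the CDKN1A start (16 to 21, against 24 to 34), whereas the CDK6 and CDKN1B starts overlapped between lines in summit reads. At CDK4 and CDKN1A the background was lowest in OCI-AML3 too. A later RB1 start, at chr13:48476450, had a peak in 3 MV4-11 libraries and in no other.

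Which regions were called only with VTP50469 or only in the controls? Overlapping peaks from the 4 libraries of a line were joined, and the joined region counted as lost when both controls had a peak there and both treated libraries had none, and as gained when it was the other way round. Of 125 regions of the 9 loci in MOLM13, 5 were gained and 2 lost, of 176 in MV4-11 1 was gained and 4 were lost, and of 100 in OCI-AML3 1 was gained and 1 lost. Over all regions, 3.22% were gained and 1.3% lost in MOLM13, 1.92% gained and 2.75% lost in MV4-11, and 1.32% gained and 2.57% lost in OCI-AML3. The member counts are of this order and rest on few regions. Presence in 2 against 2 libraries allows no test of a single region, and in MOLM13 both treated libraries had the longer lists.

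Of the gained MOLM13 regions, 2 lay at CCND2, the start region given above and chr12:4272794-4273017, less than 1 kb upstream (fold 3.44 and 3.62). The other 3 lay at CDK6: chr7:92598752-92598915 downstream (4.63 and 4.96), chr7:92610059-92610285 in the body (5.46 and 6.98) and chr7:92731456-92731554 in the body (4.56 and 3.51). CDK6 also lost a body region in MOLM13, chr7:92614742-92614830, with a fold of 5.16 and 4.99 in the controls. RB1 lost chr13:48380693-48380815, 77.0 kb into the gene (5.58 and 5.39 in the controls). All of these had 7 to 20 summit reads, where the median MOLM13 peak had 9 or 10 and the weakest 4.

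MV4-11 lost a CDK6 body region, chr7:92732645-92732793, with a fold of 5.77 and 3.42 in the controls. It also lost a CCND3 body region (chr6:41991745-41991863, 5.41 and 6.54), a region 4.0 kb upstream of CCND2 (chr12:4269601-4269876, 4.04 and 3.79) and a region downstream of CDKN1A (chr6:36701259-36701438, 3.86 and 3.29). It gained chr12:4277015-4277156 in CCND2, at the promoter of the antisense gene CCND2-AS1 (4.17 and 6.99). OCI-AML3 gained chr11:69643183-69643300 in CCND1 (4.66 and 3.65) and lost chr6:36686094-36686292 in CDKN1A (5.03 and 4.26 in the controls). CDK6 and CCND2 are the genes with such changes in both MLL1-rearranged lines, and no region was lost or gained in more than 1 line. CDK6 had gains and a loss in MOLM13 but only a loss in MV4-11. CCND2 had only gains in MOLM13 but a gain and a loss in MV4-11. With the peaks of all 12 libraries merged, CDK6 held 80 of the 208 regions of the 9 loci, so it had the most regions that could change.

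**Figure D1:**
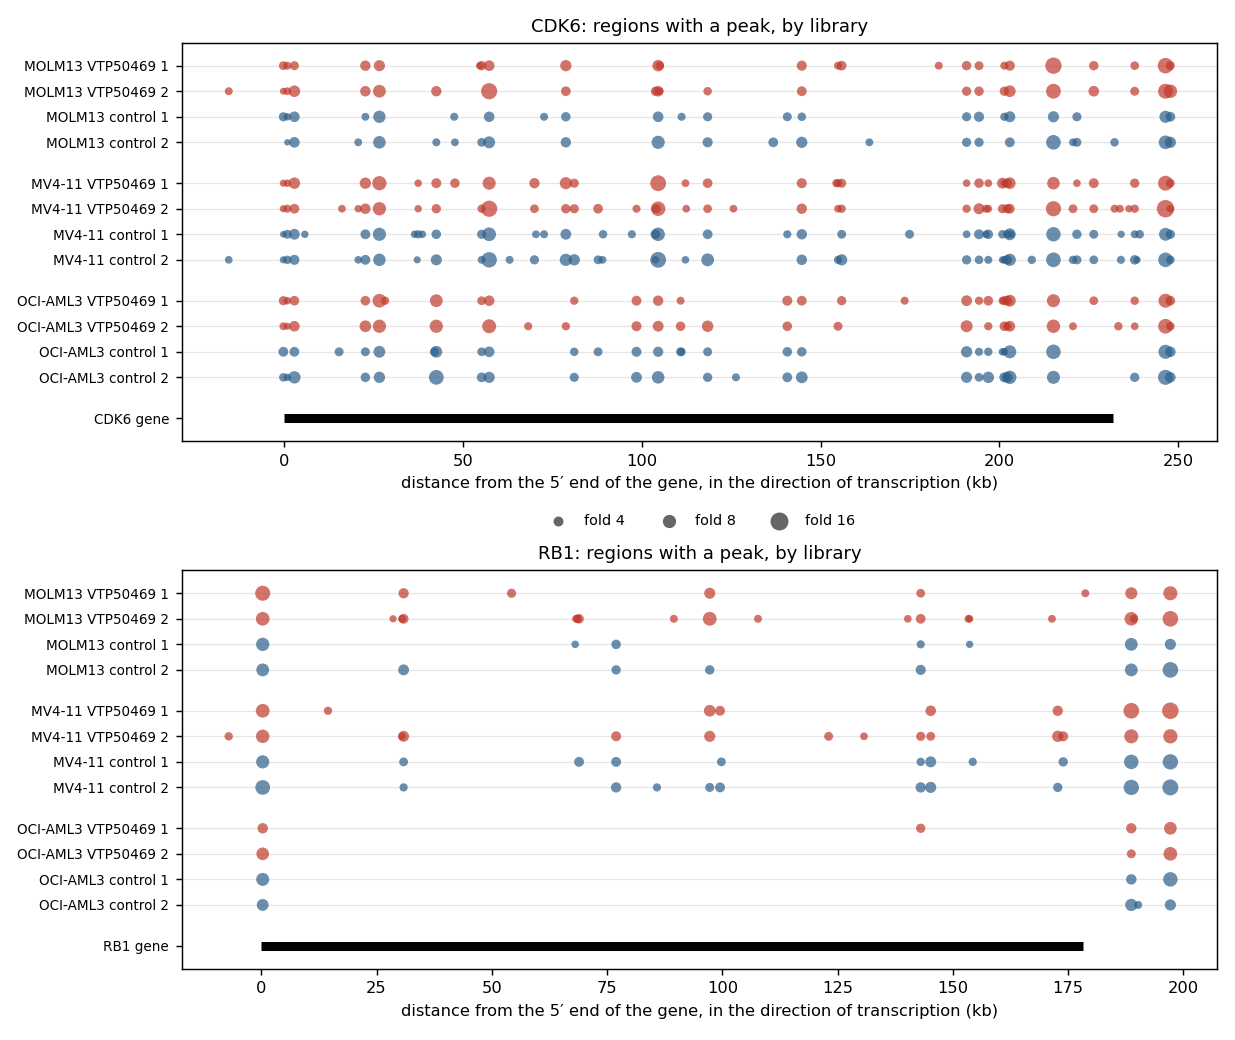
Regions with a peak in the CDK6 locus (top) and the RB1 locus (bottom). The x axis is the distance in kb from the 5′ end of the gene, rows are the 12 libraries with VTP50469 above control in each line, and the area of a dot is the fold over local background. Dots run along the whole CDK6 gene in every line, whereas in OCI-AML3 the RB1 body is almost bare between the start and the downstream regions.

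Over all 12 libraries the peaks of the 9 loci merged into 208 regions, of which 31 (14.9%) were present in every library and 87 (41.8%) in a single library. Over the whole series these shares were 6.97% of 334907 regions and 55.3%. CDK6, the longest locus, had 80 regions, and 9 of them were in all 12 libraries: the start, 6 in the body and 2 downstream. MV4-11 had a peak in 65 of the 80 CDK6 regions, OCI-AML3 in 40 and MOLM13 in 39, and MV4-11 also had the longest peak lists. Of the CDK6 regions, 27 (33.8%) were seen in MV4-11 alone, 8 (10.0%) in OCI-AML3 alone and 6 (7.5%) in MOLM13 alone, and over the whole series these shares were 28.3%, 20.9% and 17.1%. One CDK6 body region, chr7:92639454-92639898, was in all 8 MV4-11 and OCI-AML3 libraries (fold 3.73 to 8.07) and in no MOLM13 library.

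RB1 had 34 regions, and OCI-AML3 had a peak in 5 of them, MV4-11 in 20 and MOLM13 in 22. Seen in 1 line alone were 2.94% (OCI-AML3), 32.4% (MV4-11) and 38.2% (MOLM13) of the RB1 regions. Over the whole series these shares were 20.9%, 28.3% and 17.1%. The 3 in all 12 libraries were the start and 2 downstream regions. Between them, a body region at chr13:48448743-48449150 was in all 4 MV4-11 libraries (4.84 to 7.61) and in no other. The body region at chr13:48446595-48446958 was in 4 MOLM13, 3 MV4-11 and 1 OCI-AML3 library. Regions of the same kind, in 4 libraries of MV4-11 and in none of the other lines, lay at CCND2 (chr12:4293638-4294169), CCND3 (chr6:41961661-41962113) and CDKN1A (chr6:36700860-36701133). A CCND3 body region, chr6:42025517-42025855, was in the 8 libraries of the MLL1-rearranged lines (4.40 to 7.58) and in no OCI-AML3 library. How often such patterns occurred over the whole series was not counted, and MV4-11 had the longest peak lists.

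The total opening of a locus was measured as its bases under peaks for each Mb under peaks in the library (open bases per Mb), so that libraries with long and short lists could be compared. With VTP50469 the CDK6 locus had lower values in both MLL1-rearranged lines. It had 240.3 and 244.6 open bases per Mb in VTP50469-treated MOLM13, against 268.9 and 263.4 in control MOLM13, and 244.5 and 240.1 in VTP50469-treated MV4-11, against 275.0 and 279.9 in control MV4-11. In OCI-AML3 it had 433.0 and 416.0 with VTP50469, against 446.1 and 361.2 in the control. Treated libraries lay below controls without overlap in MOLM13 and MV4-11, and overlapped them in OCI-AML3. CDK6 was the only one of the 9 loci to do so in both lines, as did 4.8% of 16460 loci tested. Before scaling, the CDK6 locus had 5784 and 6206 open bases in VTP50469-treated MOLM13, against 5374 and 6080 in control MOLM13, so the order there depends on the scaling. Without peaks under a −log10 q of 5 (q being the adjusted p that the peak caller gave) the MOLM13 difference turned to 0.055 on the log2 scale.

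None of these CDK6 differences passed the test across all loci (limma on log2 values, Benjamini-Hochberg). The log2 difference was -0.13 (SE 0.14, adjusted p = 0.88) in MOLM13, -0.19 (SE 0.14, adjusted p = 1.0) in MV4-11 and 0.08 (SE 0.14, adjusted p = 0.89) in OCI-AML3, with n = 2 libraries in each group. The replicate libraries are not stated to be separate cultures, so p-values measure only the spread between these libraries. The shift of MOLM13 minus that of OCI-AML3 was -0.21 (SE 0.19, adjusted p = 0.733), and that of MV4-11 minus OCI-AML3 -0.27 (SE 0.19, adjusted p = 0.922).

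**Figure D2:**
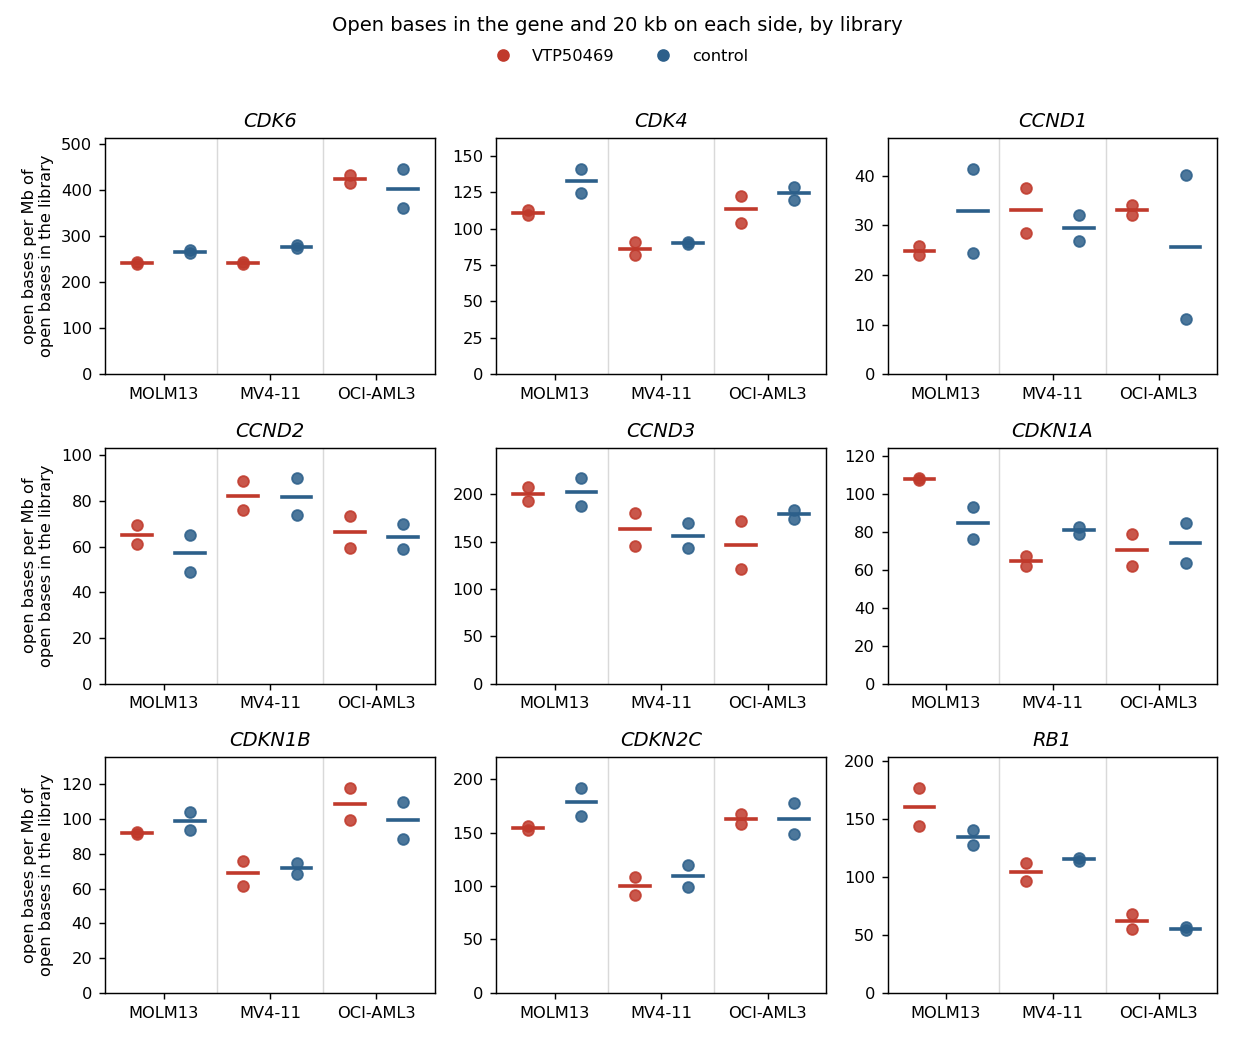
Open bases in each locus per Mb of open bases in the library (y axis), with a point for each library and a line at the mean of 2, VTP50469 (red) to the left of control (blue) in each line. CDK6 was highest in OCI-AML3 (361.2 to 446.1) and RB1 lowest there (54.2 to 68.5), whereas treated and control points lay close together in most panels.

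CDKN1A, the p53 target p21, had opposite orders in the MLL1-rearranged lines. It had 108.4 and 107.4 open bases per Mb in VTP50469-treated MOLM13, against 76.3 and 93.01 in control MOLM13. It had 61.8 and 67.4 in VTP50469-treated MV4-11, against 82.9 and 79.0 in control MV4-11. The log2 differences were 0.35 (SE 0.19, adjusted p = 0.781) and -0.32 (SE 0.19, adjusted p = 1.0), and neither passed. The difference between the 2 shifts was 0.68 (SE 0.27), with an unadjusted p of 0.0324 and an adjusted p of 0.998 (limma). Counted as a share of the library's peaks, the differences were -0.26 in MOLM13 and -0.21 in MV4-11, so the opposite orders depend on the measure. In OCI-AML3, CDKN1A had 79.1 and 62.0 with VTP50469, against 84.9 and 63.5 in the control.

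RB1 had 144.4 and 176.9 open bases per Mb in VTP50469-treated MOLM13, against 140.7 and 127.7 in control MOLM13, with treated libraries above controls. It had 96.7 and 112.4 in VTP50469-treated MV4-11, against 116.8 and 113.8 in control MV4-11, with treated libraries below, a difference that turned to 0.050 on the log2 scale without peaks under a −log10 q of 5. CDK4 had 112.7 and 109.5 in VTP50469-treated MOLM13, against 141.1 and 124.7 in control MOLM13 (log2 difference -0.25, SE 0.14, adjusted p = 0.781). The CDK4 locus also holds AGAP2, TSPAN31, MARCHF9, CYP27B1 and METTL1, whose peaks are counted with it. CCND1 had the widest spread, with 34.1 and 32.0 in VTP50469-treated OCI-AML3, against 11.0 and 40.1 in control OCI-AML3 (0.61, SE 0.49, adjusted p = 0.721).

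Cyclins D3 and D2 and the remaining inhibitors passed in no line. CCND3 had 193.2 and 207.8 open bases per Mb in VTP50469-treated MOLM13, against 216.9 and 188.0 in control MOLM13, and 180.4 and 145.7 in VTP50469-treated MV4-11, against 169.3 and 143.3 in control MV4-11. In OCI-AML3 it had 121.3 and 171.8 with VTP50469, against 173.7 and 183.9 in the control (log2 difference -0.31, SE 0.20, adjusted p = 0.641), the one line in which its groups did not overlap. CDKN2C had 152.5 and 156.4 in VTP50469-treated MOLM13, against 192.0 and 165.9 in control MOLM13, and overlapped between groups in the other lines. CDKN1B had 92.7 and 91.3 in VTP50469-treated MOLM13, against 103.8 and 93.8 in control MOLM13 (-0.10, SE 0.17, adjusted p = 0.93). CCND2 had 61.0 and 69.3 in VTP50469-treated MOLM13, against 65.3 and 48.8 in control MOLM13, and treated and control libraries overlapped in all 3 lines.

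Counted over the 9 loci, treated libraries lay below both controls at 4 loci in MOLM13 (CDK6, CDK4, CDKN1B, CDKN2C), at 3 in MV4-11 (CDK6, CDKN1A, RB1) and at 1 in OCI-AML3 (CCND3). They lay above both controls at 2 loci in MOLM13 (CDKN1A, RB1) and at none in MV4-11 or OCI-AML3. Before scaling, CDKN1B in MOLM13 lay above both controls (2231 and 2316 open bases with VTP50469, against 2074 and 2165). CDKN2C in MOLM13 then overlapped (3671 and 3967, against 3837 and 3829), as did CDK6 there. RB1 in MV4-11 overlapped too (2991 and 4138, against 3936 and 4149), and the other orders stayed the same. Over all loci tested, 26.1% were below and 12.1% above in MOLM13, 18.5% below and 16.1% above in MV4-11, and 14.5% below and 19.0% above in OCI-AML3. No member locus was called by limma in any line or in the mean over lines, and none had an unadjusted p under 0.05. Among all loci 0.0547% were called in MOLM13, 0.0% in MV4-11, 0.158% in OCI-AML3 and 0.0851% in the mean over the lines, and in MV4-11 146 loci were higher and 159 lower at an unadjusted p under 0.05. The member medians of the log2 difference were -0.10 in MOLM13 (all loci -0.07), -0.07 in MV4-11 (all loci -0.01) and 0.04 in OCI-AML3 (all loci 0.04).

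Other genes of the pathway were counted in the same way. Of 19 further genes (E-type and A-type cyclins, CDK2, CDC25A, E2F factors and their partners, RB1 relatives, other inhibitors, and the ubiquitin ligase parts SKP2, CKS1B and FBXW7), none was called with VTP50469 in any line, and 1 had an unadjusted p under 0.05 in each line (limma). CCNE1, which encodes cyclin E1, was the only one of the 19 below both controls in both MLL1-rearranged lines. Of all 16460 loci tested, 4.8% were, so 1 of 19 is near that share. Before scaling, CCNE1 had 1086 and 951 open bases in VTP50469-treated MOLM13, against 1055 and 1132 in control MOLM13, which overlap.

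The strength of single peaks was tested where a region was present in every library of a line. The fold of each region was ranked within its library and turned into normal scores, so a shift of 1 is 1 standard deviation of the ranked folds. With limma, 0.0% of 41518 regions were called in MOLM13, 0.0% of 70124 in MV4-11 and 0.0% of 30982 in OCI-AML3, and 5.61%, 6.58% and 5.8% had an unadjusted p under 0.05, in the same order of lines. Among member regions, 0 of 49, 0 of 67 and 0 of 41 were called, and 0, 2 and 0 had one. Over all 12 libraries, 0.0% of 23338 regions were called in the mean of the 3 lines (6.41% at an unadjusted p under 0.05), and 2 of 31 member regions had an unadjusted p under 0.05.

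A body region of CCND3 stood among the smallest p-values in both MLL1-rearranged lines. At chr6:41970448-41971046, 79.3 kb into the gene, the fold was 14.3 and 14.9 in VTP50469-treated MOLM13, against 10.1 and 9.33 in control MOLM13. It was 21.3 and 17.8 in VTP50469-treated MV4-11, against 14.8 and 14.5 in control MV4-11. In OCI-AML3 the order turned, with 7.73 and 8.15 with VTP50469, against 9.18 and 11.9 in the control. No group overlapped its counterpart. The shifts were 1.01 (SE 0.39, adjusted p = 0.775), 1.04 (SE 0.39, adjusted p = 0.952) and -0.53 (SE 0.39, adjusted p = 0.791) in the fit of all 12 libraries. The same pattern over the 3 lines was in 0.407% of the 23338 regions.

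A CDK6 body region 26.7 kb into the gene, chr7:92809441-92810338, had its widest gap between groups in OCI-AML3. Its fold was 11.6 and 10.8 in VTP50469-treated OCI-AML3, against 8.58 and 7.89 in control OCI-AML3 (shift 1.02, SE 0.39, adjusted p = 0.573). It was 12.4 and 10.9 in VTP50469-treated MV4-11, against 10.6 and 9.52 in control MV4-11. In MOLM13 it was 7.60 and 10.1 with VTP50469, against 9.34 and 9.76 in the control. Scored by rank, treated libraries lay below controls in MOLM13 and above them in the other lines.

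**Figure D3:**
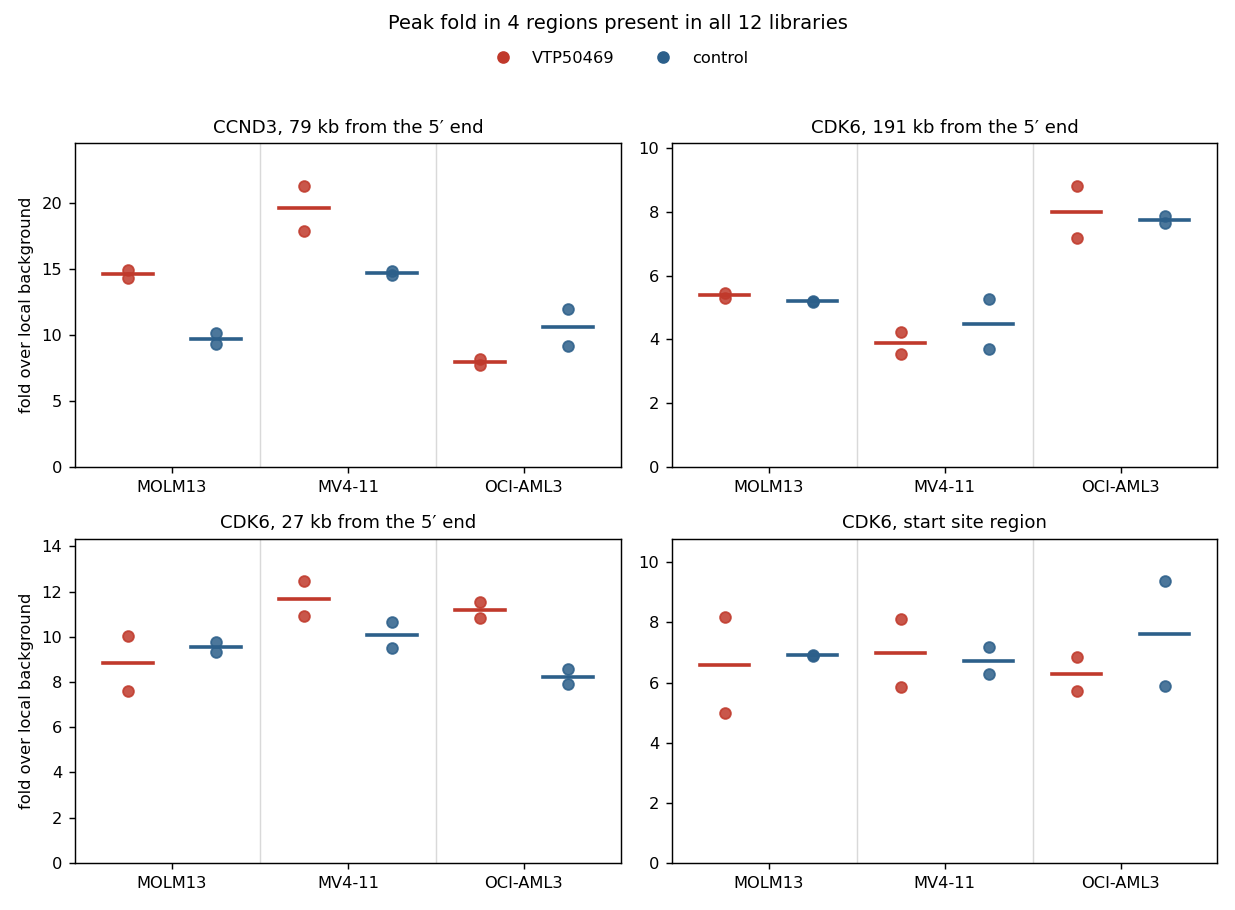
Fold over local background of 4 regions present in all 12 libraries, with a point for each library and a line at the mean of 2, VTP50469 (red) to the left of control (blue) in each line. In the CCND3 region treated points lay above control points in MOLM13 and MV4-11 and below them in OCI-AML3, whereas in the region over the CDK6 start they overlapped in every line, with the value of both treated MOLM13 libraries taken from a peak 761 and 827 bases into the gene.

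Other regions with the smallest p-values of a line did not pass either. In MOLM13 these were higher at chr7:92835501-92835783 between the CDK6 starts (fold 3.92 and 3.77 with VTP50469, against 3.41 and 2.55 in the control) and at chr7:92621117-92621588 in CDK6 (16.3 and 13.4, against 7.68 and 13.1). By rank they were lower at the CDKN1A start (4.51 and 5.86, against 5.44 and 7.26), downstream of CDKN2C at chr1:50978226-50978451 (3.23 and 4.18, against 4.88 and 4.15) and in the CCND3 body at chr6:42025517-42025774 (4.74 and 4.40, against 5.11 and 6.49). In MV4-11, CDK6 had the smallest p, at chr7:92635559-92635890, with a fold of 7.23 and 5.06 with VTP50469, against 4.45 and 3.15 in the control (shift 1.57, SE 0.53, adjusted p = 0.739). The region downstream of CDK6 at the FAM133B promoter, chr7:92589728-92590559, was higher too (13.7 and 18.7, against 10.3 and 13.1), and it had the smallest p over the 3 lines (shift 0.65, SE 0.26, adjusted p = 0.758). Lower in MV4-11 were the CCND3 body regions chr6:41961661-41962113 (7.82 and 4.12, against 7.19 and 12.1) and chr6:42017093-42017565 (8.40 and 6.14, against 10.8 and 10.1), and chr7:92717919-92718351 in CDK6 (5.71 and 4.65, against 5.88 and 10.1). In OCI-AML3, chr7:92813707-92813994 in CDK6 was higher (5.76 and 8.43, against 4.91 and 5.56), as was chr7:92635016-92635370 by rank (5.11 and 5.68, against 3.57 and 6.13). Lower there by rank were chr7:92588689-92588934 downstream of CDK6 (5.70 and 4.55, against 6.80 and 6.86), chr13:48492551-48492807 downstream of RB1 (6.54 and 4.90, against 6.73 and 9.24) and chr12:4307896-4308232 downstream of CCND2 (6.89 and 4.08, against 5.99 and 8.73).

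How did the untreated lines differ? RB1 and CDK6 separated OCI-AML3 from the MLL1-rearranged lines, in opposite directions. Control RB1 values were 140.7 and 127.7 open bases per Mb in MOLM13 and 116.8 and 113.8 in MV4-11, against 56.9 and 54.2 in OCI-AML3. The RB1 locus was 2.39-fold higher in MOLM13 than in OCI-AML3 (log2 1.26, SE 0.17, adjusted p = 0.00436) and 2.06-fold higher in MV4-11 than in OCI-AML3 (log2 1.04, SE 0.17, adjusted p = 0.00996). This locus also holds LPAR6 and RCBTB2, and peaks of these genes within it are counted with RB1. Unscaled, RB1 had 2811 and 2949 open bases in MOLM13 and 3936 and 4149 in MV4-11, against 929 and 1084 in OCI-AML3, which is the same order. RB1 lost its call between MV4-11 and OCI-AML3 without MV4-11 control library 1 (adjusted p = 0.0709) or 2 (adjusted p = 0.0741). Counted as a share of the library's peaks, the RB1 differences were 0.96 (adjusted p = 0.137) and 0.83 (adjusted p = 0.177), and neither passed.

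Control CDK6 values were 268.9 and 263.4 open bases per Mb in MOLM13 and 275.0 and 279.9 in MV4-11, against 446.1 and 361.2 in OCI-AML3. The locus was lower in MOLM13 than in OCI-AML3 (log2 -0.59, SE 0.14, adjusted p = 0.0313) and lower in MV4-11 than in OCI-AML3 (log2 -0.53, SE 0.14, adjusted p = 0.0374), which is 1.51-fold and 1.45-fold higher in OCI-AML3. Unscaled, CDK6 had 5374 and 6080 open bases in MOLM13 and 9270 and 10201 in MV4-11, against 7286 and 7229 in OCI-AML3, so MOLM13 lay below OCI-AML3 there as well and MV4-11 above it. Counted as the locus's share of the library's peaks, the differences were -0.35 and -0.14 and neither passed (adjusted p = 0.5 and 0.783). The CDK6 call between MOLM13 and OCI-AML3 was lost when either MOLM13 control, any MV4-11 library or OCI-AML3 control 1 was left out (adjusted p of 0.0214 to 0.116 over the 12 libraries). The call between MV4-11 and OCI-AML3 was lost when OCI-AML3 control 1 or any library of MOLM13 or MV4-11 was left out (adjusted p of 0.0235 to 0.162).

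CDKN2C, the INK4-type inhibitor p18, was 1.63-fold higher in MOLM13 than in MV4-11 (192.0 and 165.9 open bases per Mb in MOLM13, against 99.5 and 119.9 in MV4-11, log2 0.70, SE 0.16, adjusted p = 0.0449). The median difference over all loci between these lines was 0.11. Unscaled, CDKN2C had 3837 and 3829 open bases in MOLM13, against 3354 and 4369 in MV4-11, which overlap. Counted as a share of the library's peaks, the difference was 0.35 and did not pass (adjusted p = 0.717). This call was lost when any library but the OCI-AML3 controls was left out (adjusted p of 0.0414 to 0.22 over the 12 libraries). CDK4 lay just outside the threshold for the same pair (log2 0.55, SE 0.14, adjusted p = 0.0541), as did CDKN2C (log2 -0.57, SE 0.16, adjusted p = 0.0532) and CDK4 (log2 -0.46, SE 0.14, adjusted p = 0.0615) between MV4-11 and OCI-AML3. Each of these orders was reversed before scaling. CDK4 then had 2819 and 2878 open bases in control MOLM13, against 3023 and 3309 in control MV4-11. OCI-AML3 controls had 2103 and 2402 at CDK4 and 2901 and 2972 at CDKN2C, fewer than MV4-11 controls at both loci.

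The member calls were 1 of 9 between MOLM13 and MV4-11, 2 of 9 between MOLM13 and OCI-AML3, and 2 of 9 between MV4-11 and OCI-AML3. Over all loci 6.08%, 9.39% and 13.6% were called, in the same order of pairs. The 3 comparisons share control libraries 2 by 2. No cyclin D, CDKN1A or CDKN1B locus passed in any pair. The order of the control means was CDK6 first in every line, and CCND1 last, at 32.9 for MOLM13, 29.5 for MV4-11 and 25.6 for OCI-AML3, on loci of unequal length. Of the 19 other genes, 1 was called between MOLM13 and MV4-11, 1 between MOLM13 and OCI-AML3, and 3 between MV4-11 and OCI-AML3. E2F2, an activator of S phase genes, was higher in MOLM13 (63.4 open bases per Mb, mean of 2) and MV4-11 (62.3) than in OCI-AML3 (24.9), with adjusted p = 0.0166 and 0.0172. E2F5, a factor that pairs with RB1 relatives, was higher in MOLM13 than in MV4-11 (152.7 against 92.35, adjusted p = 0.0252) and lower in MV4-11 than in OCI-AML3 (92.35 against 138.6, adjusted p = 0.029). E2F5 controls had 3185 and 3369 open bases in MOLM13 before scaling, against 3106 and 3374 in MV4-11, which overlap. Those of OCI-AML3 had 2410 and 2595, fewer than MV4-11, so both E2F5 calls depend on the scaling. FBXW7, which marks cyclin E for degradation, was higher in MV4-11 than in OCI-AML3 (170.0 against 76.8, adjusted p = 0.0167). The orders given for E2F2 and FBXW7 were the same before scaling.

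**Figure D4:**
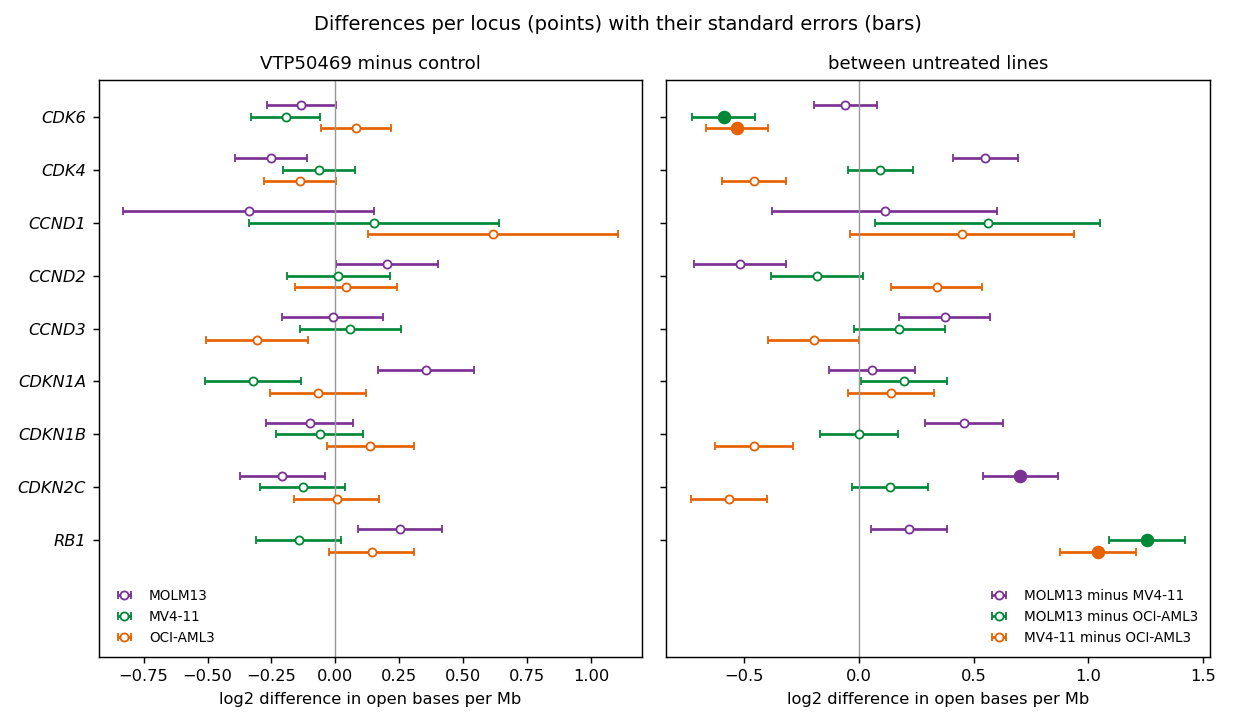
Log2 differences in open bases per Mb (x axis) for each of the 9 loci, with VTP50469 minus control in each line on the left and pairs of untreated lines on the right. Bars are standard errors and filled points have an adjusted p of at most 0.05 over 16460 loci. No point on the left is filled, and on the right RB1 and CDK6 against OCI-AML3 and CDKN2C between MOLM13 and MV4-11 are.

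Among single peaks, 1 of the 31 member regions differed between untreated lines. A CDK6 body region 190.8 kb into the gene, chr7:92645477-92646007, had a fold of 3.69 and 5.26 in control MV4-11, against 7.85 and 7.64 in control OCI-AML3 (shift -2.10, SE 0.43, adjusted p = 0.0214). Control MOLM13 had 5.18 and 5.22. This call was lost without MV4-11 control library 1 (adjusted p = 0.162) or 2 (adjusted p = 0.0665) or OCI-AML3 control library 1 (adjusted p = 0.113). Over all regions 2.94% were called between MV4-11 and OCI-AML3, 2.14% between MOLM13 and OCI-AML3 and 1.12% between MOLM13 and MV4-11. Of the 31 member regions, 9, 7 and 5 had an unadjusted p under 0.05 in these pairs (limma), in the same order. Over all 23338 regions these shares were 20.3%, 17.4% and 15.2%.

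Of the pairs with OCI-AML3, CDKN2C had the smallest p of a member against MOLM13. The fold of its start region, chr1:50968099-50970503, was 5.88 and 6.77 in control MOLM13, against 9.53 and 11.6 in control OCI-AML3 (shift -1.32, SE 0.39, adjusted p = 0.0893). Its downstream region, chr1:50976881-50978481, was lower in MOLM13 (4.88 and 5.05, against 7.57 and 7.38 in OCI-AML3) and in MV4-11 (5.87 and 6.60). Lower in MOLM13 was also a CDK6 body region, chr7:92633450-92633883 (7.48 and 5.94, against 10.4 and 10.8). Higher in MOLM13 than in OCI-AML3 were the shared promoter of BYSL and MED20 downstream of CCND3 (15.7 and 13.8, against 9.62 and 13.3), a region upstream of CDKN1B (7.31 and 16.6, against 7.96 and 7.92) and the CCND3 and TAF8 start (11.1 and 14.8, against 9.62 and 10.6). Higher in MV4-11 than in OCI-AML3 were chr13:48491994-48492919 downstream of RB1 (12.9 and 14.5, against 6.73 and 9.24) and the CDK6 body regions chr7:92731743-92732189 (11.2 and 15.3, against 6.43 and 9.71) and chr7:92779002-92779408 (11.5 and 14.7, against 6.91 and 7.69). None of these passed.

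Between MOLM13 and MV4-11 the smallest p was at CDK6 again. The region chr7:92588549-92589012, downstream of the gene, had a fold of 5.86 and 7.72 in control MOLM13, against 5.30 and 4.495 in control MV4-11 (shift 1.401, SE 0.54, adjusted p = 0.23). The CDK4 start was higher in MOLM13 as well (10.6 and 11.8, against 10.9 and 9.25, shift 0.89, SE 0.38, adjusted p = 0.284). Lower in MOLM13 were a region upstream of CDKN1A and 2 CCND3 body regions, with unadjusted p of 0.0917 to 0.111.

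Which loci had a pattern like that of CDK6? Over the 12 libraries, and among 569 loci with at least 0.5 times the mean peak number of CDK6 and more than 1 Mb away, the log2 open bases per Mb were closest for TBXAS1 (Pearson r = 0.967), PLA2G4A (0.958), GRM8 (0.951), ART3 (0.940) and SCHIP1 (0.931). Like CDK6, each had its highest means in OCI-AML3. TBXAS1 and GRM8 lie on chromosome 7, as CDK6 does, and a difference along that chromosome was not tested. TBXAS1, for example, had 273.9 and 280.2 open bases per Mb with and without VTP50469 in OCI-AML3, against 182.9 and 187.5 in MOLM13. The 12 points are 6 groups of 2 libraries and share the scaling by the library total, so these values describe likeness only.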

How the data were processed

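Bulk ATAC-seq had been done on 12 libraries of 3 lines, and each library had been deposited as its own peak list. The submitters' processing notes name bcl2fastq 2.17, Trimmomatic 0.33, Bowtie 1.1.2, deepTools and MACS2 2.1.0, with hg38 as the build, and the paper's supplementary methods name a different aligner. How read ends were shifted, how duplicates were treated and which peak threshold the authors used are not given in the sources used here, although the lowest −log10 q of each list stood near a q of 0.05. The deposited columns are the MACS2 score, the fold over local background (a ratio within the library), the −log10 p and −log10 q of the summit, and the distance of the summit from the peak start. The authors normalised none of these values between libraries, so differences in depth remain in them.

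The members and gene lists were chosen with earlier results of these data known. Only peaks on the autosomes and the X chromosome entered. Reads over each summit were recovered from the fold together with the Poisson p (tolerance 0.001) for at least 99.998% of a library's peaks. Reads are not independent molecules. Peaks that shared at least 1 base were merged. Gene and start positions came from RefSeq on GRCh38, and 1 kb on either side of a start counted as promoter. Loci with a mean of at least 2 peaks per library were tested on log2(open bases per Mb + 1), on which scale log2 differences are given, and regions on normal scores of the ranked fold. Both used limma 3.58.1 in R 4.3.3, two-sided, with all groups of the table in 1 fit for loci and for regions of all 12 libraries, and the 4 libraries of a line for the tests by line. p-values were adjusted by Benjamini-Hochberg over all features of a contrast, with a threshold of 0.05. The fits were tested on simulated data. Some of the marker genes looked at are not reported here. Named were all 9 genes, every lost or gained region, the 3 regions of smallest p in each direction of a contrast, and the 5 loci most like CDK6. Alternatives were a −log10 q of at least 5, another overlap, shorter flanks, another pseudocount, no filter, log2 fold, summit reads or peak number as the measure, the replicate number as a block, and leaving out each library.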

Additional observations from a re-analysis of the deposited data

Results flagged for a closer look

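At 2 loci and 4 regions, both VTP50469 libraries lay beyond both controls in opposite directions in 2 lines. The difference between the lines' shifts was tested for each with limma, and none passed after adjustment over all features. How many of all loci or regions had such opposite orders was not counted. Of all 16460 loci tested, 12.1% to 26.1% lay beyond both controls in a given direction within a line. Groups of 2 libraries are too small to test a single library as an outlier.

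The CDKN1A locus had more open bases per Mb with VTP50469 in MOLM13 and fewer in MV4-11, and the shift in MOLM13 exceeded that in MV4-11 by 0.675 on the log2 scale (SE 0.27, adjusted p = 0.998). With peak number as the measure both CDKN1A shifts were below 0 (-0.26 and -0.21). The RB1 locus had the same orders as CDKN1A, with a difference of 0.396 (SE 0.23, adjusted p = 0.998), and its shift in MV4-11 was 0.050 without peaks under a −log10 q of 5.

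In normal-score units, the CCND3 body region chr6:41970448-41971046 was higher with VTP50469 in MOLM13 and MV4-11 and lower in OCI-AML3. Its shift in MOLM13 exceeded that in OCI-AML3 by 1.54 (SE 0.56, adjusted p = 0.669), and its shift in MV4-11 exceeded that in OCI-AML3 by 1.57 (SE 0.56, adjusted p = 0.761). Another CCND3 body region, chr6:41936073-41936599, was higher in MV4-11 and lower in OCI-AML3 (difference 0.81, SE 0.52, adjusted p = 0.906). So was chr12:57744283-57745230, at the TSPAN31 promoter downstream of CDK4 (difference 0.765, SE 0.51, adjusted p = 0.91). The CDK6 body region chr7:92809441-92810338 was lower in MOLM13 and higher in the other lines, with a difference of -0.826 between MOLM13 and MV4-11 (SE 0.55, adjusted p = 0.999) and of -1.47 between MOLM13 and OCI-AML3 (SE 0.55, adjusted p = 0.671).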

How the results depend on the processing

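None of the 9 loci and none of their regions was called for VTP50469 in any line, and the alternatives that were run left these counts at 0. Of the single values followed, 4 turned in direction, all far from the threshold, and the cause was not tested. The CDK6 difference in MOLM13 was 0.055 and the RB1 difference in MV4-11 was 0.050 once peaks under a −log10 q of 5 were left out, with peak number the CDKN1A difference in MOLM13 was -0.26, and with 1 library left out the CDK6 difference in OCI-AML3 ran from -0.072 (without control 2) to 0.23 (without control 1). Depth limits all regions: those lost or gained had 7 to 22 summit reads, and a peak needed 4 or 5.

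Counts of lost or gained regions in the 9 loci moved as follows. Without flanks, MOLM13 gained 3 and MV4-11 lost 2. With a −log10 q of at least 5, MV4-11 gained 3, OCI-AML3 lost 2 and OCI-AML3 gained 0. When peaks had to overlap by 0.5 of the shorter one, MV4-11 gained 2 and OCI-AML3 lost 3.

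Between untreated lines, the number of the 9 loci called was 3 (MOLM13 minus MV4-11) and 4 (MV4-11 minus OCI-AML3) with a −log10 q of at least 5, 2 and 4 without the filter, and 2 for the first pair with a pseudocount of 10. With peak number as the measure it was 0 in all 3 pairs. With 1 library left out it ran from 0 to 1 for MOLM13 minus MV4-11, from 1 to 3 for MOLM13 minus OCI-AML3 and from 0 to 4 for MV4-11 minus OCI-AML3. Of single regions, 1, 4 and 4 were called in the 3 pairs with log2 summit reads. For MV4-11 minus OCI-AML3, 0 were called with a −log10 q of at least 5, and 0 to 1 with 1 library left out. RB1 between MOLM13 and OCI-AML3 was called with every library left out in turn (adjusted p of 0.00369 to 0.0284) and lost its call with peak number (log2 0.96, adjusted p = 0.137).

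Over all loci, the share of calls higher in the first line moved with the measure. It was 58.4% for MOLM13 minus MV4-11 and 45.6% for MV4-11 minus OCI-AML3 as reported, 77.2% and 23.8% with a −log10 q of at least 5, and 32.5% and 64.9% with peak number. The median of all loci was then 0.217 and -0.197 with a −log10 q of at least 5, against 0.112 and -0.0661 as reported. Calls over all loci fell to 27 higher and 56 lower for MOLM13 minus MV4-11 with peak number, against 585 and 416 as reported.

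Libraries with the same replicate number did not deviate together (correlations of -0.043 to 0.0558 over loci and 0.0082 to 0.05 over regions), so the numbers do not pair the samples. With the replicate number as a block, 0, 1 and 1 of the 9 loci were called for MOLM13 minus MV4-11, MOLM13 minus OCI-AML3 and MV4-11 minus OCI-AML3, and the share of higher calls over all loci was 24.5% for the first pair and 60.3% for the last. With 2 numbers this block takes 1 further degree of freedom from the fit.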
